A study of Homo sapiens with 12 samples.

Results

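The 12 samples of MDA-MB-231 cells carry numbers in their titles, and these numbers fall into 3 runs. Samples 1 to 4 form run 1, Samples 5 to 8 run 2 and Samples 9 to 12 run 3, and each run holds 1 sample of every treatment. All 12 samples of the series therefore entered the comparison of runs, 4 in each. MDA-MB-231 is an established human line of triple-negative breast cancer with mesenchymal traits. In each run 1 sample was left untreated and 3 received 5-aminolevulinic acid (5-ALA) at 0.1 mM. Of these 3, 1 had 5-ALA only, 1 was also given the FECH siRNA, a single sequence, at 15 nM, and 1 the control siRNA, a commercial product, at 15 nM. The cells were grown as monolayers in RPMI medium with fetal calf serum, and their RNA was measured on arrays of 28869 probe sets. Nothing in the labels says what a run stands for, nor that its samples shared a culture, day or batch. The p-values therefore cover only the spread among the 12 arrays, which may be technical.

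Heme is made from 5-ALA, and ferrochelatase (FECH) is the enzyme that inserts iron into protoporphyrin at the last step. 5-ALA is therefore used to load cells with porphyrins, and loss of FECH slows their conversion to heme. Cells that hold more heme raise HMOX1, which breaks it down, and lower ALAS1, the first enzyme of the pathway. MDA-MB-231 cells are also known for secreting cytokines and prostaglandins, and many such genes are under the transcription factors NF-kB and AP-1.

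All values are log2 of the deposited signal unless stated, so a difference of 1 is 2-fold. A gene was tested if its probe set exceeded 7.29, the median signal, on 3 or more of the 12 arrays, and 12151 genes did. The fit held treatment and run, and the test was limma with Benjamini-Hochberg adjustment over these genes at 0.05. Array medians lay between 7.25 and 7.34. The 8 mesenchymal markers fixed for this line, among them VIM, CD44 and AXL, were above the filter level on all 12 arrays. Of the 6 luminal markers, ESR1 and PGR were above it on no array, EPCAM and GATA3 on all 12, FOXA1 on 8 and CDH1 on 7. Of the fibroblast, blood and endothelial markers, DCN, PDGFRA, PTPRC, CD3E and HBB were above it on none, COL1A1, LUM, PDGFRB and CD14 on all 12 and PECAM1 on 11.

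FECH, the siRNA target, was low in the FECH siRNA sample of every run. Its level was 6.55, 6.62 and 6.43 in runs 1, 2 and 3 with FECH siRNA, and 8.60, 8.54 and 8.51 with control siRNA. All 3 values with FECH siRNA lay below all 3 with control siRNA. The difference within a run, 1 sample against 1, was -2.06, -1.93 and -2.08. FECH itself did not pass the test between runs (run 3 minus run 1 -0.04, SE 0.06, limma adjusted p 0.67).

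Over all tested genes, treatment took 73.6% of the variance, run 13.4% and the remainder 13%, where run holds 2 of the 11 degrees of freedom (18.2%). For 2754 genes (22.7%) run took more than treatment, and for 1147 genes (9.4%) it took over 50%. Without the FECH siRNA group the share of treatment was 38.9% and that of run 34.4%, where run holds 2 of the 8 degrees of freedom (25%). Per gene, the median share of run was then 31% and that of treatment 28.1%, and run took more than treatment in 6320 genes (52%).

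Samples of the same run deviated from their treatment means in the same way. Across genes, these deviations correlated at 0.242 to 0.514 between samples of run 1, at 0.207 to 0.473 in run 2 and at 0.304 to 0.539 in run 3. Between runs 1 and 2 the correlation was -0.201 to 0.154, and between run 3 and the others -0.436 to -0.044. The genes are not independent replicates, and deviations from a mean of 3 samples are negatively related by construction. The first principal component of the deviations (37.8% of their variance) set the 4 samples of run 3 at 5.9 to 14.1 and the other 8 at -9.1 to -1.1. The second (18.2%) set run 1 at 3.2 to 5.8 and run 2 at -8.7 to -1.8.

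**Figure D1:**
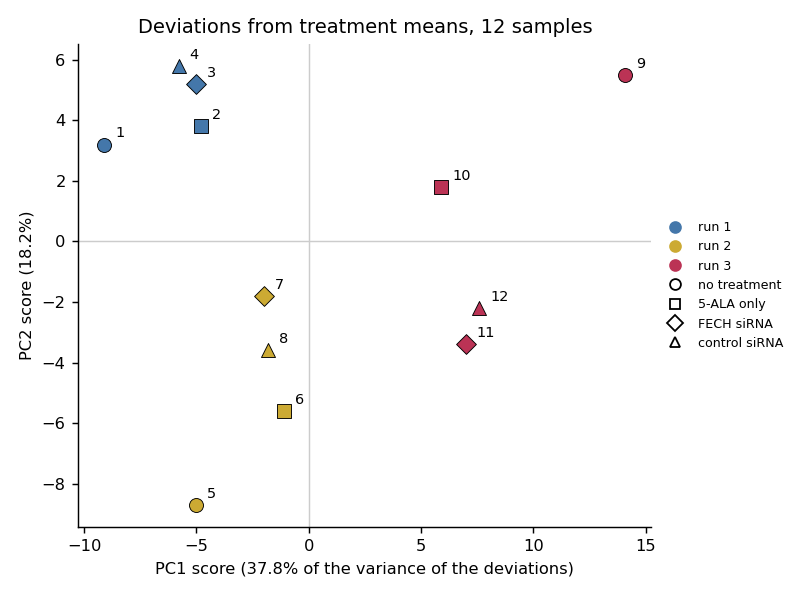
Scores of the 12 samples on the first 2 principal components of the deviations from the treatment means over 12151 genes, with sample numbers beside the points. Colours are runs and shapes are treatments. Run 3 lies right of runs 1 and 2, and Sample 9, at 14.1, lies farthest out.

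Run 3 differed from run 1 in 1661 genes and from run 2 in 541, while runs 1 and 2 differed in 14. Against run 1, 805 genes were higher in run 3 (6.62% of those tested) and 856 were lower (7.04%). Against run 2, 319 were higher (2.63%) and 222 lower (1.83%). Between run 2 and run 1, 5 genes were higher (0.0411%) and 9 lower (0.0741%), although 2270 had an unadjusted p below 0.05. An F test for any difference among the runs called 1466 genes (12.1%). All 4 samples of run 3 lay above the other 8 in 133 of the tested genes (1.09%) and below them in 88 (0.724%). The differences were small: the median size among the 1661 calls was 0.23, and only 30 passed 1.5-fold and 6 passed 2-fold. The comparisons share samples, so their calls are not independent. The order of the counts turned under 2 other settings: with array weights they were 1654, 819 and 1369 for run 3 against run 1, run 3 against run 2 and run 2 against run 1, and with only the 8 samples compared 442, 207 and 392.

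Without Sample 9, the untreated sample of run 3, run 3 exceeded run 1 in 639 genes (5.26%) and was lower in 680 (5.6%), and 1114 genes were called both with and without that sample. Against run 2, 261 genes were higher (2.15%) and 150 lower (1.23%), with 338 called both ways. Between runs 2 and 1 the counts grew to 87 higher (0.716%) and 182 lower (1.5%), and included all 14 of the fit with 12 samples. The F test called 1274 (10.5%). The counts also moved by over 1.5 times without other samples. Run 3 against run 1 fell to 669, 798 and 1018 without Samples 1, 3 and 4, and to 1098 and 769 without Samples 11 and 12. Run 3 against run 2 fell to 157, 187, 344 and 225 without Samples 5, 6, 7 and 8, to 359 without Sample 3, and to 342 and 246 without Samples 10 and 12. Run 2 against run 1 gave 0 to 5 calls without any 1 of Samples 1 to 8, and 2 without Sample 12.

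Each treatment was also left out in turn, and its own pair of samples compared with the genes called in the other 3. For run 3 against run 1, the sign in the left-out pair was the same in 705 of 774 genes for no treatment (91.1%), 793 of 957 for 5-ALA only (82.9%), 477 of 507 for FECH siRNA (94.1%) and 423 of 439 for control siRNA (96.4%). Over all genes the same sign was seen in 61% to 69.9%. A run difference that depended on transfection was not called for any gene by limma (F test over both terms, lowest adjusted p 0.85, 682 genes at an unadjusted p below 0.05). The term for run 3 minus run 1 alone gave a lowest adjusted p of 0.69 and 854 genes at an unadjusted p below 0.05. These last tests were chosen after the data had been seen.

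SPP1, PAEP and PTGS2 had the largest fitted differences upward in run 3. SPP1 encodes osteopontin, a secreted phosphoprotein of bone and of many tumours. In the order no treatment, 5-ALA only, FECH siRNA and control siRNA, its level was 5.95, 5.98, 6.27 and 6.16 in run 1, 6.11, 5.94, 6.24 and 6.32 in run 2, and 6.72, 7.50, 7.93 and 8.79 in run 3. All 4 samples of run 3 lay above the other 8, and the means were 6.09 ± 0.15, 6.15 ± 0.16 and 7.74 ± 0.86 (SD, n = 4 each). SPP1 entered the test only through 3 arrays of run 3, since the other 9, Sample 9 included, were under the filter level. Its values are therefore a description, with no test.

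PAEP, which encodes the secreted lipocalin glycodelin, rose in run 3 under every treatment. Its level in the same order was 8.55, 8.43, 9.14 and 9.14 in run 1, 8.61, 8.84, 9.30 and 9.22 in run 2, and 9.93, 10.03, 10.85 and 10.33 in run 3. Run 3 lay above both other runs without overlap, by 1.47 against run 1 (SE 0.08, limma adjusted p 4e-06) and by 1.29 against run 2 (adjusted p 9.8e-06). It was also higher with either siRNA than without in each run.

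PTGS2 had the lowest p of all genes in the F test. It encodes cyclooxygenase 2, the inducible enzyme of prostaglandin synthesis. Its level was 10.95, 10.99, 10.58 and 11.18 in run 1, 10.95, 11.01, 10.62 and 11.13 in run 2, and 12.04, 12.40, 12.04 and 12.44 in run 3. Runs 1 and 2 matched to within 0.05 under each treatment, and every sample of run 3 was 1.09 to 1.46 above its partner in run 1. The rise was 2.47-fold (log2 1.31, SE 0.06, limma adjusted p 1.9e-06).

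PTGS2 belongs to a list of NF-kB targets, cytokines and chemokines, genes that cells switch on in inflammation. Of its 30 tested members, 8 rose and 0 fell in run 3 against run 1, 26.7% beside 6.62% of all genes higher, with the same counts without Sample 9. The median of the list was 0.09, against 0.01 over all genes. Against run 2, 4 rose (13.3%) and 2 fell (6.67%), beside 2.63% and 1.83% of all genes. CSF3, the granulocyte growth factor, stood at 10.22 to 10.64 in run 1, 10.33 to 10.71 in run 2 and 10.93 to 11.25 in run 3, again with no overlap. It rose by 0.63 (SE 0.06, limma adjusted p 2e-04). CSF2, which encodes GM-CSF, was 9.23, 8.81, 8.50 and 8.82 in run 1 and 10.11, 9.75, 8.89 and 8.94 in run 3. Its difference was 0.89 and 0.94 in the samples without siRNA and 0.39 and 0.12 in those with siRNA, 0.58 on average (adjusted p 0.013). CXCL8, a neutrophil attractant, rose by 0.42 (adjusted p 0.026), highest in Sample 10 at 12.65. IL11 rested largely on Sample 9: run 3 held 10.41, 9.03, 8.75 and 9.04 and run 1 8.63, 8.23, 8.36 and 8.63, and the rise of 0.84 (adjusted p 0.04) was 0.47 without Sample 9 (adjusted p 0.02).

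Promoters of these cytokine genes were searched for 2 motifs known from their regulation, AP-1 (TGANTCA) and NF-kB (written here as GGNNNTTCC), on both strands of the 250 bases before the RefSeq start (GRCh38.p14). They are shown because the genes rose together. CXCL8 is at chr4:73740319-73740568 on the plus strand and CSF2 at chr5:132073539-132073788 on the plus strand, 5′ to 3′, with matches in capitals.
CXCL8: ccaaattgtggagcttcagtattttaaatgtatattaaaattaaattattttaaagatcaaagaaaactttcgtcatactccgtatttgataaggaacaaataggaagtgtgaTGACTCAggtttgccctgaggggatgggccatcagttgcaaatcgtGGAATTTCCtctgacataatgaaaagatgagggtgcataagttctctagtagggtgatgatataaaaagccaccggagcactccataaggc
CSF2: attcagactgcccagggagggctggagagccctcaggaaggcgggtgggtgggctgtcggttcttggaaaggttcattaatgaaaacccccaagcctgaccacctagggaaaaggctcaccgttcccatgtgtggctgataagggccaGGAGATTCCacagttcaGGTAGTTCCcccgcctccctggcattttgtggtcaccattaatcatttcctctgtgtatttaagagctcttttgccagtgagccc
CXCL8 held 1 match to AP-1 and 1 to NF-kB, 137 and 91 bases before the start, and CSF2 held 2 matches to NF-kB. IL11 held 1 AP-1 match, and PTGS2 and SPP1 held neither in this window. CSF3 had no entry among the promoters and was not searched. Of 35116 promoters of the same length, 6.57% held the AP-1 letters and 17.1% the NF-kB letters, so a match is a description of the sequence only.

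Cholesterol genes formed the list with the largest share of rises. Of 25 tested members, 9 rose (36%, beside 6.62% of all genes) and 1 fell in run 3 against run 1 (median 0.10), and 8 rose and 2 fell without Sample 9 (median 0.09). Against run 2, 8 rose (32%, beside 2.63% of all genes) and 0 fell. SQLE, the squalene epoxidase, rose by 0.48 (limma adjusted p 0.0053), from 9.52, 9.61, 8.94 and 9.72 to 10.22, 10.30, 9.16 and 10.03. MVD, a decarboxylase of the mevalonate pathway, rose by 0.33 (adjusted p 0.0021), and all 4 samples of run 3, at 9.17 to 9.41, lay above the other 8. FDFT1 and CYP51A1, later enzymes of the pathway, rose by 0.33 and 0.26. In a list of fatty acid and triglyceride genes 3 of 21 rose (14.3%), among them PLIN2, a coat protein of lipid droplets (0.34), and HADHA, of fatty acid oxidation, fell by 0.18.

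The unfolded protein response showed 6 rises (25%, beside 6.62% of all genes) and 0 falls among 24 members against run 1. Without Sample 9 there were 7 rises. Against run 2 the list showed 4 rises (16.7%, beside 2.63% of all genes) and 0 falls. HERPUD1, a component of ER-associated degradation, was 11.01, 11.04, 11.05 and 10.96 in run 1 and 11.06, 11.63, 11.90 and 11.37 in run 3. Sample 9 was the only sample of run 3 near the level of run 1, and the rise was 0.47 with it (limma adjusted p 0.015) and 0.61 without (adjusted p 0.00097). ATF6, a sensor of the same pathway, rose by 0.32 with no overlap between run 3 and the rest, and the chaperone HYOU1 rose by 0.22. TNFRSF10B, a death receptor on the p53 list, rose by 0.43, with run 3 at 9.84 to 10.32 and the other 8 samples at 9.41 to 9.76.

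Ribosomal protein genes moved unevenly. Of 49 tested, 9 rose (18.4%) and 4 fell (8.16%) against run 1, beside 6.62% and 7.04% of all genes, with a median of 0.07. Against run 2, 7 rose (14.3%, beside 2.63% of all genes) and 0 fell. RPS14 stood out with 12.22, 12.23, 12.27 and 12.23 in run 1, 12.12, 12.05, 12.34 and 12.18 in run 2, and 13.03, 13.03, 13.21 and 12.95 in run 3. The rise of 0.81 (SE 0.05, limma adjusted p 1.1e-05) compares with 0.50 for RPLP1, 0.39 for RPS19 and 0.33 for RPLP2. DCTPP1, which breaks down unusual nucleotide triphosphates, rose by 0.63 against run 1 and 0.80 against run 2, and POLR1H, a subunit of RNA polymerase I, by 0.60 and 0.76. Both were above the other 8 samples in all 4 of run 3, as were 1.09% of all genes. Among nuclear genes of the respiratory chain 5 rose (10.4%) and 6 fell (12.5%) of 48, with NDUFB3 up by 0.63 and NDUFA1 down by 0.34.

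Other genes with a large rise were MMP8, a collagenase (0.77, limma adjusted p 0.0033), ACTG2, a smooth muscle actin (0.74, adjusted p 4e-04), SERPINB3, a serine protease inhibitor (0.76, adjusted p 0.02), and COLEC10, a collectin (0.70, adjusted p 0.0028). ACTG2 was 9.88 to 10.01 in run 3 and 8.96 to 9.48 in the other runs, without overlap. SERPINB3 did not pass against run 2 (0.25, adjusted p 0.46). The means of SERPINB3 (6.56 and 7.07) and COLEC10 (6.84 and 6.82) in runs 1 and 2 lay below the filter level, so their differences set run 3 against signals not shown to be above background. LSM3, of the U6 snRNP, rose by 0.55 and POMK, a mannose kinase, by 0.41.

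**Figure D2:**
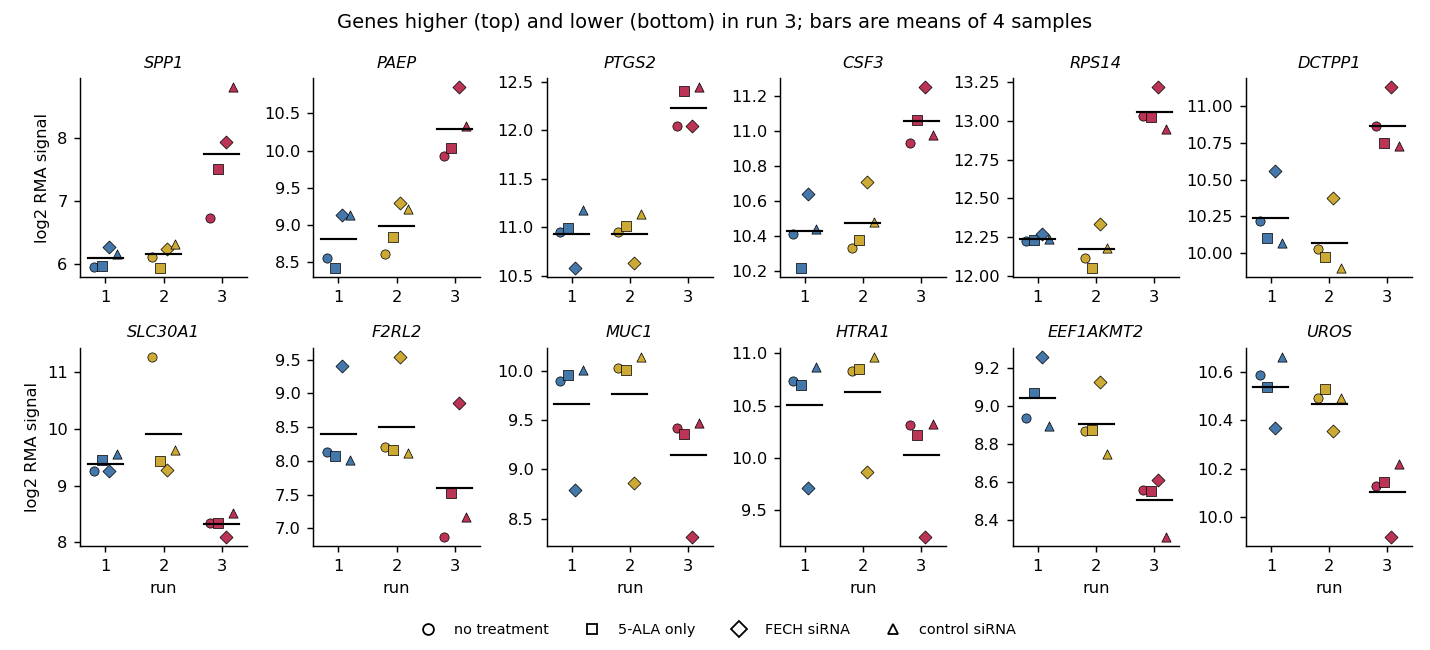
Log2 signal of 12 genes in each of the 12 samples by run. Shapes are treatments and horizontal bars are means of 4. In the top row all 4 samples of run 3 lie above the others for SPP1, PAEP, PTGS2, CSF3, RPS14 and DCTPP1. In the bottom row SLC30A1, EEF1AKMT2 and UROS lie below the others in run 3, while F2RL2, MUC1 and HTRA1 were lower within each treatment but overlapped across treatments.

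The largest fall in run 3 was that of SLC30A1, a zinc exporter of the plasma membrane whose gene responds to zinc. Its level was 9.26, 9.45, 9.26 and 9.56 in run 1, 11.27, 9.43, 9.28 and 9.62 in run 2, and 8.35, 8.35, 8.09 and 8.52 in run 3. All 4 samples of run 3 lay below the other 8, as in 0.724% of all genes. Sample 5, the untreated sample of run 2, lay far above the rest. Run 3 was lower than run 1 by 1.06 (SE 0.29, limma adjusted p 0.034), a difference that did not pass without Sample 9 (-0.86, adjusted p 0.077). It also missed the threshold without any 1 of Samples 2, 3, 4, 11 and 12 (adjusted p 0.065 to 0.1). Without Sample 5 the difference was the same and the adjusted p was 3.9e-06. Against run 2 it was -1.58 with all samples (adjusted p 0.012) and -1.10 without Sample 5 (adjusted p 7.9e-06). SLC39A10, a zinc importer, also fell against run 1 (-0.28, adjusted p 0.023), and the other 9 tested members of the metallothionein and zinc list did not pass.

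Receptors and surface proteins were among the other falls. F2RL2, the protease-activated receptor 3, was 8.13, 8.06, 9.40 and 8.01 in run 1 and 6.87, 7.53, 8.86 and 7.17 in run 3, a fall of 0.80 (limma adjusted p 0.0019) that was -0.65 without Sample 9. LPAR1, a receptor for lysophosphatidic acid, fell by 0.63 (-0.47 without Sample 9), and again Sample 9 was the lowest. MUC1, an epithelial mucin, fell by 0.52 (adjusted p 9.2e-05) by similar amounts under the 4 treatments, -0.47 to -0.59. On the luminal list that holds MUC1, 2 of 17 tested genes fell (11.8%) and 1 rose (5.88%) against run 1, beside 7.04% and 6.62% of all genes. Without Sample 9, 1 fell (5.88%) and 3 rose (17.6%), beside 5.6% and 5.26% of all genes. MAL2, which directs membrane traffic in epithelial cells, fell by 0.55, and PDE7B, a phosphodiesterase, by 0.55 with Sample 9 and 0.30 without. LUM, a proteoglycan of the fibroblast list, fell by 0.49, and the other 5 tested members of that list did not pass. Of 5 blood and endothelial markers 1, the receptor KDR, fell by 0.30. LUM and KDR are 16.7% and 20% of the tested members of their lists, 1 gene each, beside 7.04% of all genes. TAS2R4 and PPP4R4 fell by 0.62 and 0.54. Against run 2, PRSS2, VGLL3, H2BC14 and RGS2 fell by 0.55, 0.55, 0.54 and 0.54, of which H2BC14 did not pass without Sample 9 (adjusted p 0.064).

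Enzymes of heme synthesis were tested because the study is about them. Of 7, 2 fell (28.6%, beside 7.04% of all genes) and 0 rose in run 3 against run 1. The counts were the same without Sample 9 and against run 2, where 1.83% of all genes fell. UROS, the uroporphyrinogen III synthase, was 10.59, 10.54, 10.37 and 10.66 in run 1, 10.49, 10.53, 10.36 and 10.49 in run 2, and 10.13, 10.14, 9.92 and 10.22 in run 3. The 4 samples of run 3 lay below the other 8 (-0.44, SE 0.04, limma adjusted p 4e-04). CPOX, the coproporphyrinogen oxidase, fell by 0.39 (adjusted p 0.0024). HMOX1, the inducible heme oxygenase, differed by 0.27 (adjusted p 0.063) and ALAS1, the first enzyme of the pathway, by 0.10 (adjusted p 0.44), and neither passed.

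Interferon and spliceosome genes held more falls than rises against run 1, where 7.04% of all genes fell. Of 42 interferon genes 7 fell (16.7%) and 1 rose (median -0.06), among them BST2 (-0.29), B2M (-0.28), DDX60 (-0.26) and HERC5 (-0.26), and 6 fell without Sample 9. Of 27 spliceosome and RNA-binding genes 8 fell (29.6%) and 1 rose, among them CIRBP (-0.35), TRA2A (-0.33), SRSF7 (-0.27) and HNRNPH1 (-0.25). Against run 2, where 2.63% of all genes rose and 1.83% fell, 2 interferon genes were higher and 2 lower (4.76% each). Of the spliceosome genes 2 were higher (7.41%) and 1 lower (3.7%) in that comparison. Of 45 replication genes 5 fell (11.1%) and 0 rose against run 1, among them the cyclin CCNE2 (-0.38) and the thymidylate synthase TYMS (-0.22). Without Sample 9, 3 fell (6.67%, beside 5.6% of all genes), and against run 2, 1 rose (2.22%) and 0 fell. Of 37 genes of mitosis 2 fell (5.41%). The shares for replication without Sample 9 and for mitosis are near those of all genes. ATG5, needed for autophagosome formation, fell by 0.41 and PSMA4, of the proteasome, by 0.39, both without overlap. No glycolytic gene of 19 passed.

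Several calls between run 3 and run 1, large and small, depended on single samples. When each of the 12 samples was left out in turn, the call was lost 11 times for HADHA, 10 for CIRBP, 8 for IL11 and for PDE7B, 7 for ASNS, 6 for SLC39A10 and for TAS2R4, 5 for CXCL8 and for HNRNPH1, 4 for TYMS and for PPP4R4, and 3 for CCNE2 and for KDR. It was lost once for CSF2 and NDUFA1 (without Sample 1), for FDFT1 and HERPUD1 (without Sample 3) and for SERPINB3 (without Sample 12). PTGS2, PAEP, RPS14, CSF3, ACTG2, NDUFB3, MUC1, F2RL2 and UROS kept theirs with each sample left out. Against run 2, H2BC14 lost its call 11 times and RGS2 9 times, while DCTPP1 kept its own.

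**Figure D3:**
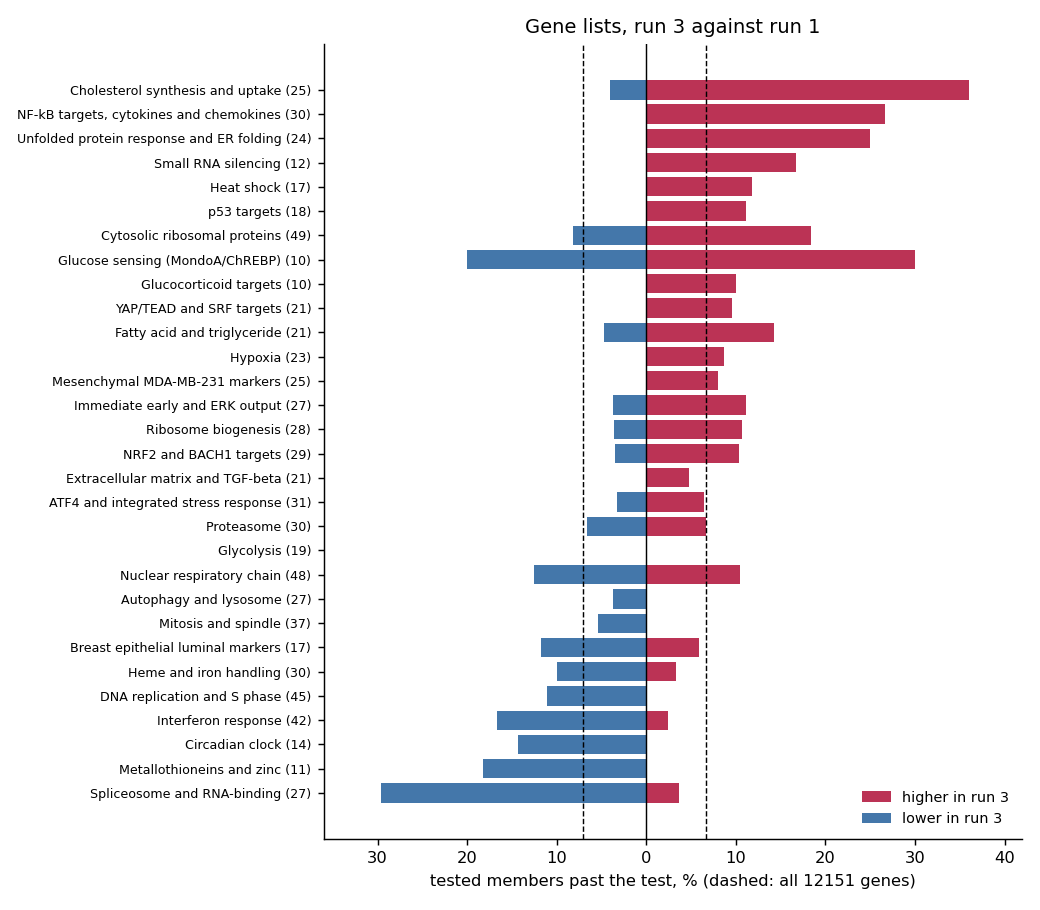
Percent of tested members of each gene list (number tested in brackets, lists of 10 or more) past the limma test in run 3 against run 1, higher to the right and lower to the left. Dashed lines mark 6.62% and 7.04%, the shares over all 12151 genes. Cholesterol, glucose sensing, cytokine and unfolded protein response genes extend farthest to the right, and spliceosome and interferon genes lie mostly on the left. Of the 10 glucose sensing genes 3 were higher and 2 lower, and without Sample 9, 1 was higher and 2 lower.

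Several of the genes above are neighbours on 2 chromosomes. UROS, HTRA1 and EEF1AKMT2 lie on the distal long arm of chromosome 10. HTRA1, a secreted serine protease, fell by 0.48 and by 0.60 against runs 1 and 2, and EEF1AKMT2, a lysine methyltransferase of elongation factor 1A, by 0.53 and 0.40. After this was seen, 11971 genes with a place in the RefSeq table were put in chromosomal order and divided into 468 blocks of 25 neighbours. Only the order was used, since no genome build is given for the arrays.

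Of the 8 blocks whose median difference between run 3 and run 2 was past 0.1 in size, 3 were the last full blocks of chromosome 10, from PDCD4 to PPP2R2D, and 5 lay among the last 10 of chromosome 16, from LINC02167 to SPIRE2. Block medians over the genome had an SD of 0.03 in this comparison. Between run 3 and run 1, 18 blocks were past 0.1, of which 3 and 7 lay in these stretches and 8 on chromosomes 1, 2, 6, 19 and 20. In the 75 genes of the chromosome 10 stretch, the median was -0.16 against run 1 and -0.13 against run 2. There, 28 genes fell and 1 rose against run 1 (37.3% and 1.33%, beside 7.04% and 6.62% of all genes), and 16 fell and 0 rose against run 2 (21.3% lower, beside 1.83%). The preceding 375 genes of chromosome 10, from ZMYND11 to SMC3, had medians of -0.009 and 0.003, and 43 of them fell against run 1 (11.5%). The median of run 2 minus run 1 was -0.007 in the stretch.

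The chromosome 16 stretch moved the other way. Over its 250 genes the median was 0.11 against run 1 and 0.10 against run 2, with 60 rises and 4 falls against run 1 (24% and 1.6%) and 36 rises and 1 fall against run 2 (14.4% higher, beside 2.63% of all genes). The 325 genes before it, from WASIR2 to UBE2MP1, had medians of 0.03 and 0.01. MVD and HERPUD1, described above, lie in this stretch. All 4 treatments showed both shifts. Against run 1, the median on chromosome 10 was -0.16, -0.08, -0.17 and -0.18 in the usual order of treatments, and on chromosome 16 it was 0.08, 0.14, 0.11 and 0.10. Without Sample 9 the medians were -0.15 and 0.12. The stretches were picked on these samples, so the values are a description with no test.

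**Figure D4:**
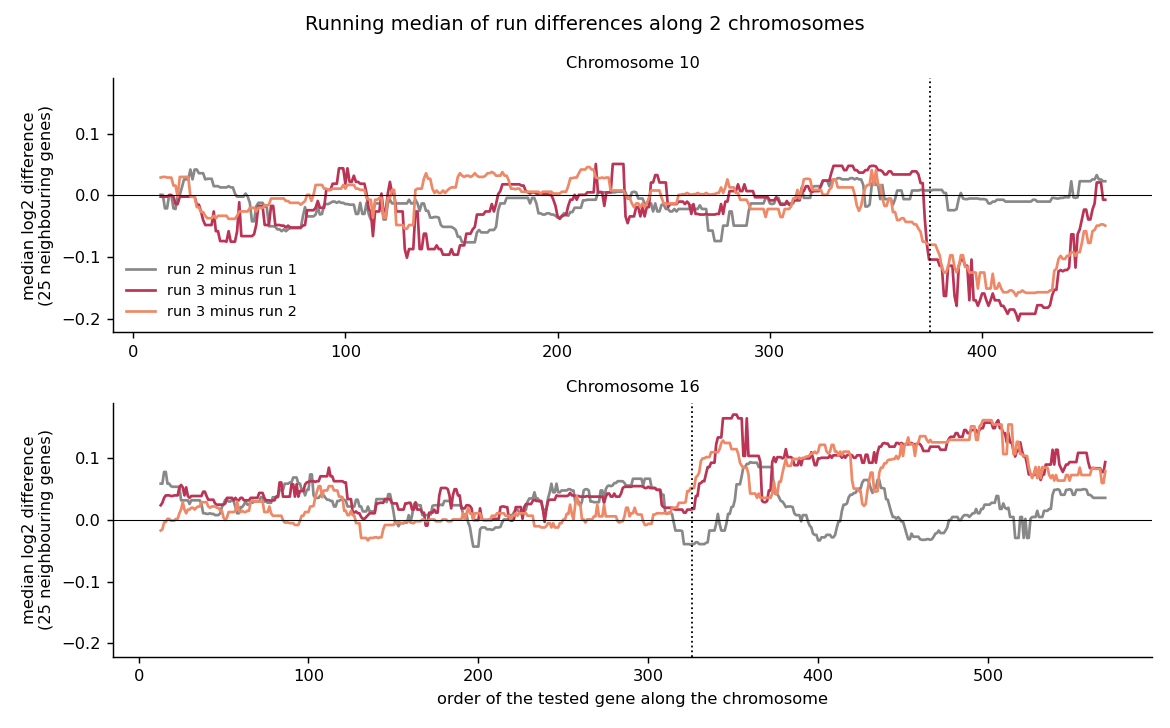
Running median of the run differences (log2) over 25 neighbouring tested genes along chromosomes 10 and 16, by gene order. Grey is run 2 minus run 1, red run 3 minus run 1 and orange run 3 minus run 2. Dotted lines mark the start of the stretches, over which both differences with run 3 have medians of -0.16 and -0.13 on chromosome 10, where they return towards 0 among the last genes, and of 0.11 and 0.10 on chromosome 16.

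The 14 differences between runs 1 and 2 were all under 2-fold. Of the 9 in coding genes, ANAPC15, a subunit of the anaphase-promoting complex, YBX3, an RNA-binding protein, and KXD1 were higher in run 2 by 0.30, 0.28 and 0.26. TMEM218, SLC5A3, TMEM167A, ACADM, SFT2D2 and YIPF4 were lower by 0.39, 0.36, 0.32, 0.32, 0.30 and 0.28. TMEM218 was 9.82, 10.00, 9.29 and 10.04 in run 1, 9.44, 9.55, 8.97 and 9.61 in run 2 and 9.33, 9.47, 8.80 and 9.46 in run 3. Run 2 was thus lower than run 1 under each treatment (limma adjusted p 0.012). Run 3 was lower again under each treatment, with a run 3 minus run 2 of -0.13 that did not pass (adjusted p 0.1). On leaving out single samples TMEM218 lost its call 5 times and the other 8 coding genes 9 to 11 times. ANAPC15 and YBX3 stood in run 2 at the level of run 3, with differences of -0.001 and 0.04 (run 3 minus run 2).

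Small nucleolar RNAs guide the modification of ribosomal RNA. In run 3 against run 2, 15 of 66 tested were higher and 2 lower, a share of 25.8% beside 4.39% of coding genes. Against run 1 the share was 13.6%, beside 13.7% of coding genes. SNORD6 was 8.73 to 9.05 in run 1, 8.88 to 9.22 in run 2 and 9.64 to 10.16 in run 3, a rise of 1.06 over run 1 (limma adjusted p 0.00078). SNORA3A rose by 0.91 and SNORA22 by 0.79. SNORD14C, SNORD58A, SNORD53, SCARNA9 and the telomerase RNA TERC were the other 5 genes called between runs 2 and 1, the first 2 higher in run 2. The median size of a difference was 0.20 for snoRNAs and 0.06 for coding genes in run 3 against run 2. Many snoRNAs lie in introns of other genes, and signal of the host transcript was not separated from theirs. Probe sets of no or several symbols, tested apart, were called in 2.08%, 7.35% and 1.74% of 2409 for run 2 against 1, run 3 against 1 and run 3 against 2. In the same order, 0.0786%, 13.7% and 4.39% of coding genes were called.

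Sample 9 departed from what its treatment and run predicted more than any other sample. A term for this sample alone was past the test in 459 genes (3.78%), 98 higher and 361 lower. The same term gave 6 genes (0.0494%) for Sample 5 and 0 for each of the other 10 samples, whose counts at an unadjusted p below 0.05 were 150 to 947, beside 1887 for Sample 9. Sample 9 was singled out from earlier results of these data and is 1 sample, so its values are a description. The genes named here were chosen by the size of the departure.

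CYP1A1, a monooxygenase induced through the aryl hydrocarbon receptor, departed most. Its level in untreated cells was 10.40 in run 1, 10.12 in run 2 and 6.79 in Sample 9, while the other 3 samples of run 3 were at 10.08, 11.51 and 10.15. CYP1B1, induced through the same receptor, was 12.77, 12.68 and 10.70 in the 3 untreated samples and 12.66 to 12.91 in the other 9. Sample 9 was the lowest of all 12 in both genes.

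The second group low in Sample 9 was the integrated stress response, the programme under the transcription factor ATF4. Of 31 tested members 16 were lower and 0 higher in Sample 9, with a median of -0.60 beside -0.01 over all genes. Among all 12151 genes, 361 were lower and 98 higher in this sample. CHAC1, which degrades glutathione, was 10.46, 10.43 and 8.31 in the untreated samples of the 3 runs, against 10.17 to 10.62 in the other 9. SESN2, a stress-induced sensor of leucine, was 9.61, 9.76 and 7.99, DDIT3, which encodes CHOP, 10.14, 10.57 and 8.98, and CTH, which makes cysteine, 11.07, 10.92 and 9.59. SERPINB2, a protease inhibitor, was at 13.11, 13.22 and 11.45 in the 3 untreated samples. Hypoxia genes showed 4 of 23 higher and 0 lower in Sample 9, among them KDM3A, PDK1 and PFKFB3 (median 0.21), and IL11 was 1.49 above its additive level. Because Sample 9 is the untreated sample of run 3, these genes enter the run differences through it: ASNS, an ATF4 target, fell by 0.41 in run 3 with Sample 9 and by 0.24 without.

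Sample 5 departed in 6 genes, described here after their values were seen, and these are metallothioneins and SLC30A1. Metallothioneins are small proteins that bind zinc and copper, and their genes are induced by these metals through the factor MTF1. MT1X was 10.38 and 9.79 in the untreated samples of runs 1 and 3, 12.45 in Sample 5 and 9.96 to 10.74 in the other 9 samples. SLC30A1 was 11.27 in Sample 5 and at most 9.62 elsewhere. MT1F was 13.17 in Sample 5 and 11.60 to 12.19 elsewhere, and MT1B, MT1E and the pseudogene MT1L were above their additive level by 0.84, 0.75 and 0.69. All 9 coding MT1 and MT2A genes on the metallothionein and zinc list had their highest of 12 values in Sample 5, while MT3, not on the list, did not (8.58, against 8.61 in Sample 8). These genes are close copies, so probes may pick up more than 1 of them. MTF1 itself was 9.92 in Sample 5 and 9.61 to 9.97 elsewhere.

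The promoters of MT1X and SLC30A1 are shown for the core of the metal response element, TGCNCNC, which MTF1 binds. The 250 bases before the RefSeq start (GRCh38.p14) are chr16:56682220-56682469 on the plus strand and chr1:211579162-211579411 on the minus strand, 5′ to 3′, with matches on either strand in capitals.
MT1X: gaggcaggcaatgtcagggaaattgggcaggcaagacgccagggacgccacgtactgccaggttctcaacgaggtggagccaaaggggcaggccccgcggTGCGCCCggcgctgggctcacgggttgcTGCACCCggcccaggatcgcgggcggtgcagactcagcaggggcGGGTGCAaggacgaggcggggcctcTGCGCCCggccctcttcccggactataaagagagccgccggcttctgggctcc
SLC30A1: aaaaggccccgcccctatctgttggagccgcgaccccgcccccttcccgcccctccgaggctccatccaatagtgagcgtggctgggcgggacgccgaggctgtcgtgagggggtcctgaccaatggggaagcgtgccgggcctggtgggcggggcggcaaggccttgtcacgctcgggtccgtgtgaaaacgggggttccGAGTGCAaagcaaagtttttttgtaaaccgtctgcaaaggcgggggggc
MT1X held 4 matches and SLC30A1 held 1, which lies 49 bases before the start. Of the 35116 promoters, 1.77% held 4 or more matches and 49.1% held at least 1.

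**Figure D5:**
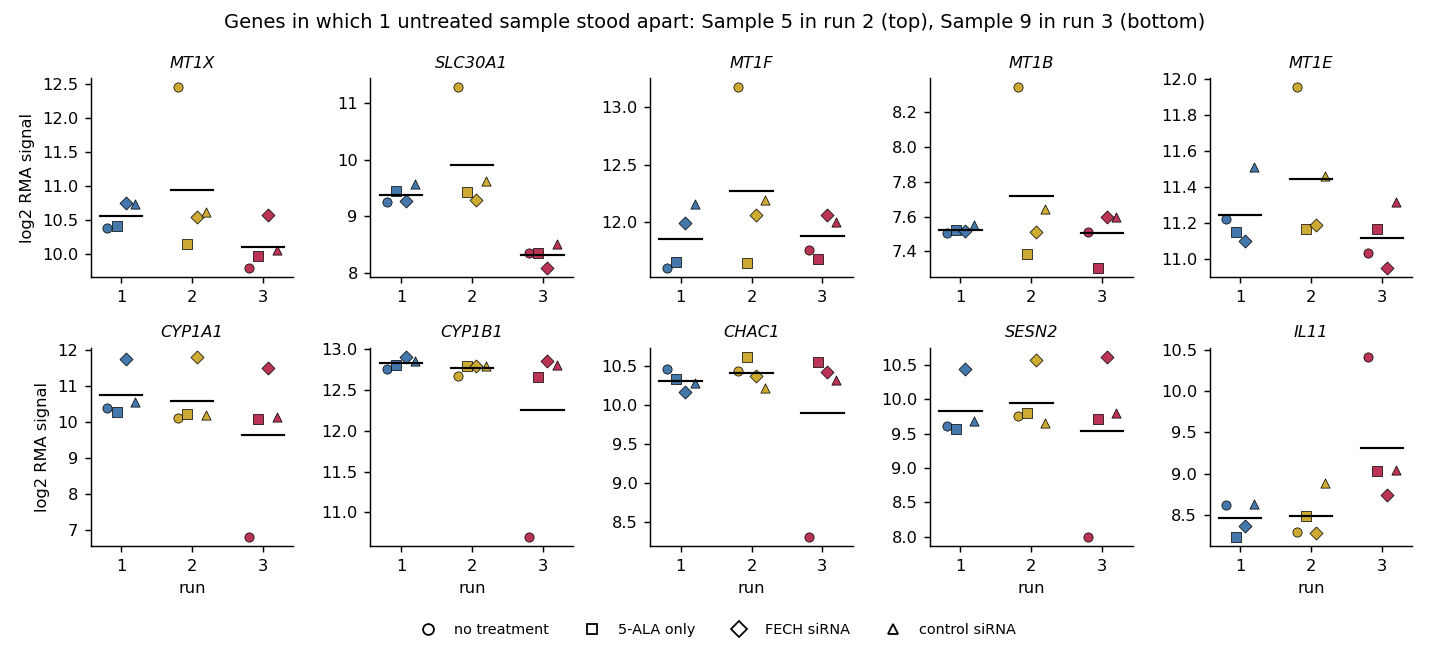
Log2 signal in the 12 samples by run for 5 genes in which Sample 5 stood apart (top) and 5 in which Sample 9 did (bottom). Shapes are treatments and bars are means of 4. The untreated sample of run 2 lies alone at the top for MT1X (12.45) and SLC30A1 (11.27), and that of run 3 alone at the bottom for CYP1A1 (6.79) and CYP1B1 (10.70).

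Within-run treatment differences showed where a single sample weighed most. For 5-ALA only against no treatment, 1 gene differed by over 2-fold in run 1, 4 in run 2 and 43 in run 3, of which 42 were higher with 5-ALA. The untreated sample of run 3 is Sample 9. For FECH siRNA against control siRNA the counts were 282, 313 and 303, and for control siRNA against 5-ALA only 13, 13 and 16. HMOX1 rose with 5-ALA by 1.89, 1.99 and 2.15 in the 3 runs, and ALAS1 changed by -0.70, -0.68 and -0.90.

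With run in the fit, more genes passed the treatment tests. FECH siRNA against control siRNA called 5683 genes (46.8%) with run and 4651 without, 4649 of them in both. Control siRNA against 5-ALA only called 1652 (13.6%) with run and 753 without, and all 753 were among the 1652. 5-ALA only against no treatment called 3 (0.0247%), namely HMOX1, FBXO30 (0.77, limma adjusted p 0.0017) and ALAS1 (-0.76), of which ALAS1 passed only with run (adjusted p 0.026 against 0.054). Without Sample 9 the 3 counts were 6125, 2186 and 3.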

How the data were processed

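Total RNA of 12 MDA-MB-231 samples was measured on arrays. The authors deposited intensity values on a linear scale (21.0 to 23641), made with RMA (background correction, quantile normalization and probe summary) and oligo, per the submitters' processing notes. No version and no genome build is given in these sources. The design had foreseen log2 values, so log2 was taken here (pseudocount 0). In the workbook 12 further per-sample columns could not be tied to a sample and were not used.

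Of the probe sets, 19937 carried 1 gene symbol. The brightest on average stood for its gene, and probe sets with no or several symbols were tested apart. The fits used limma 3.58.1 in R 4.3.3 with treatment and run, and were tested on simulated data. The number of arrays limits the precision, and signal over background was not analysed here.

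Runs were taken from the sample numbers in the titles. The replicate number used here follows the same sample numbers, so run and replicate block are the same grouping, which the labels do not explain. Every pair of samples from the same run and different treatments correlated at 0.207 or more in their deviations. Genes named are FECH, HMOX1 and ALAS1, the 8 largest rises and falls of each run comparison among coding genes past the test, up to 4 members of each of 35 gene lists past the test (or the lowest p where none passed), and the 10 lowest p of the F test. Of the genes this rule picks, 1 is not reported here. The members and lists were chosen with earlier results of these data known. Alternatives were the filter, variance model, array weights, normalization, terms and groups in the fit, and each sample left out.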

Additional observations from a re-analysis of the deposited data

Results flagged for a closer look

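In each run the 4 deviations of a named gene from its treatment means were compared, and a sample was singled out where its gap to the nearest of the others was large against their whole range. Of 111 groups of 4 over 37 genes, 10 met this, and chance alone gives about 1 in 20. SLC30A1 met it in all 3 runs, each time in the untreated sample: -0.37 in run 1 (others 0.33 to 0.38), 1.65 in run 2 (others 0.36 to 0.40) and -1.28 in run 3 (others -0.79 to -0.72). The untreated mean includes Sample 5, so the values of the 3 untreated samples are tied to each other. PDE7B was at -0.85 in Sample 9, beside -0.23 to -0.15 in the rest of run 3. MMP8 was at -0.50 in the 5-ALA sample of run 1 (others -0.20 to -0.18).

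The other 5 departures were small. PTGS2 was at -0.36 in the untreated sample of run 2 (others -0.46 to -0.45), and HTRA1 at 0.15 in the control siRNA sample of run 1 (others 0.10 to 0.11). ANAPC15 was at 0.15 in the FECH siRNA sample of run 2 (others 0.08 to 0.09). YBX3 was at -0.15 in the control siRNA sample of run 1 (others -0.22 to -0.21), and KXD1 at 0.05 in that of run 2 (others 0.12 to 0.13).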

How the results depend on the processing

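The count of genes between run 3 and run 1 (1661) stayed within 1.5 times under other filters, variance models and normalizations. It was 37 with run only in the fit, 507 without the FECH siRNA group, 774 without the untreated group and 442 with only the 8 samples compared. Leaving out 1 sample gave 669 to 1534. Run 3 against run 2 (541) gave 839 with a trended robust variance, 819 with array weights, 23 with run only, 230 and 203 without the FECH siRNA or untreated group, and 207 with 8 samples, with 157 to 532 on leaving out 1 sample. Its split of 319 higher and 222 lower became 361 and 380 after cyclic loess. Run 2 against run 1 (14) was the least steady: 198 with a filter at the 70th percentile, 297 with a trended robust variance, 1369 with array weights, 105 after cyclic loess, 9 with centred arrays, 0 with run only, 5 without the FECH siRNA group, 0 without the untreated group, 392 with 8 samples and 0 to 269 on leaving out 1 sample. The F test (1466) gave 2346 with array weights, 19 with run only, 271 and 409 without the FECH siRNA or untreated group, and 554 to 1274 on leaving out 1 sample. The cause was not tested. With run only, the treatment differences (73.6% of the variance) stay in the remainder of the fit, and the last settings hold fewer samples. Array weights were lowest for Sample 9 (0.29).

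Without the replicate block, control siRNA against 5-ALA only called 753 genes in place of 1652, and the other 2 treatment counts stayed within 1.5 times. The share of variance by run was 34.4% without the FECH siRNA group, where run holds 25% of the degrees of freedom.

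Of 1379 values of named genes under other settings, 1062 stayed on their side of the threshold, 294 lost the call and 4 turned sign, none of them called. The fall of SLC30A1 against run 1 lost its call with array weights (-0.81, limma adjusted p 0.14), with a trended robust variance (adjusted p 0.12), with run only (0.26) and without the FECH siRNA group (0.12). The sign turned for ALAS1 (-0.002) without the untreated group, KLF9 (-0.106) without the FECH siRNA group, and PPP1R15A with array weights (0.084) and without the untreated group (0.239). On leaving out 1 sample, INSIG2 ranged from -0.269 to 0.008, PPP1R15A from -0.226 to 0.253 and KLF9 from -0.102 to 0.234.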
